A study of Mus musculus with 2 samples.

Results

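Levels of 9 imprinted genes that control embryonic growth, Dlk1, Peg3, Peg10, Mest, Plagl1, H19, Meg3, Grb10 and Cdkn1c, were described across the cell classes of the mouse pancreas at embryonic day 14.5. The genes were taken by symbol from the feature table, which lists 32285 features, and all 9 were found once. Single cells were profiled with the 10x Genomics droplet assay, which marks every RNA molecule it captures, close to the 3' end, with the barcode of its cell and an identifier of its own (UMI). The Null library pooled 3 pancreata from 3 litters of Fgf9 -/- embryos, whose Fgf9 locus carries a LacZ cassette that abolishes its function in every cell. The Control library pooled 8 littermate pancreata, also from 3 litters, of genotypes Fgf9 +/+ and Fgf9 +/-. Both came from mice on a C57BL/6J background. With 1 pooled library a genotype there was no replicate, so no test of a genotype difference was possible. The intervals given here are 95% intervals that cover counting error only.

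An imprinted gene is transcribed mainly or wholly from the copy inherited from 1 parent, and in mammals many such genes set the size of the embryo and placenta. As a rule of thumb, paternally expressed genes favour growth and maternally expressed genes restrain it. The genes lie in clusters in which a differentially methylated region governs several neighbours at once. The UMIs counted here do not tell the parental copies apart, so imprinting itself was not measured.

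In the mouse, Dlk1, Peg3, Peg10, Mest and Plagl1 are expressed from the paternal copy. Dlk1 encodes a membrane-bound and shed protein with EGF-like repeats related to the Notch ligands. Peg3 and Plagl1 encode zinc-finger DNA-binding proteins, Peg10 a protein derived from a retrotransposon, and Mest a protein with an alpha/beta hydrolase fold. H19, Meg3 and Cdkn1c are expressed from the maternal copy, as is Grb10 in most tissues outside neurons. H19 and Meg3 produce long non-coding RNAs, Grb10 an adaptor that restrains signalling by the insulin and IGF1 receptors, and Cdkn1c the cyclin-dependent kinase inhibitor p57.

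In the GENCODE annotation of GRCm38, Dlk1 (chr12:109452823-109463336, plus strand) and Meg3 (chr12:109541001-109571726, plus strand) share a domain with Rian, Mirg, Rtl1 and Dio3. H19 (chr7:142575529-142578143, minus strand) lies near Igf2, and Cdkn1c (chr7:143458339-143461050, minus strand) lies farther along the same chromosome with Kcnq1ot1 and Phlda2. Peg3 (chr7:6703892-6730431, minus strand) starts beside Usp29, which runs the other way. Peg10 (chr6:4747306-4760517, plus strand) and Mest (chr6:30723547-30748465, plus strand) occupy separate stretches of chromosome 6, Grb10 spans chr11:11930508-12038683 on the minus strand, and Plagl1 spans chr10:13060504-13131694 on the plus strand. The 3' end of Mest overlaps Copg2 on the opposite strand over 912 bases, and Cdkn1c overlaps Gm44732 on the opposite strand over 892 bases. The sources used here do not say whether counting took account of strand. Whether reads of these overlapping genes were kept apart is therefore not known here.

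Promoter windows of 6 members were held in the RefSeq table for GRCm38.p6, 10 windows in all, each covering the 250 bases before an annotated start. The windows of Meg3 and Peg3 are shown because these members had the most similar levels across cell classes (below) and because each holds 1 copy of TGACGTCA, the palindromic cAMP response element, given in capitals. The element reads the same on both strands.
Meg3, chr12:109540746-109540995, plus strand: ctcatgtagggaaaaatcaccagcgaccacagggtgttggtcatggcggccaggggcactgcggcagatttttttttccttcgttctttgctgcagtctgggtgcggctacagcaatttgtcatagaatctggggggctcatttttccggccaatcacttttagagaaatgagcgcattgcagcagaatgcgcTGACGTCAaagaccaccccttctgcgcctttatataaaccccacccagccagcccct
Peg3, chr7:6730420-6730669, minus strand: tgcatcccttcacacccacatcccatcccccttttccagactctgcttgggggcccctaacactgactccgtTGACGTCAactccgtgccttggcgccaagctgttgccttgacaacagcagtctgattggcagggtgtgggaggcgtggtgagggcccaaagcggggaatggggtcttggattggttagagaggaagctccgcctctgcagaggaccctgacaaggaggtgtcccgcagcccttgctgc
The element ends 49 bases before the start of Meg3 and 170 bases before that of Peg3. It occurred in 508 of the 32851 windows of the table (1.55%) and in no other window of a member, which included the windows of Dlk1, Mest, Grb10 and Plagl1 and a second window of Meg3. A match in the letters is a description and does not show that a protein binds there.

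H19 RNA also holds the hairpin of a microRNA, miR-675, whose mature arms are shown because H19 was among the members that differed between the libraries; the microRNA itself was not measured. Capitals mark the seed, bases 2 to 8, and both arms lie inside the H19 locus on the minus strand.
miR-675-5p, chr7:142577112-142577133: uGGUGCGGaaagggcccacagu
miR-675-3p, chr7:142577078-142577099: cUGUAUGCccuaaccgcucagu

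The Null library held 271129120 UMIs and the Control library 339959625 UMIs. After filtering, 8830 Null barcodes (median 24149 UMIs) and 25876 Control barcodes (median 4050 UMIs) were kept, of which 8297 Null and 14495 Control cells fell in a class named from marker genes. Clusters left unnamed under the naming limits given below held 333 Null (median 1213 UMIs) and 10982 Control barcodes (median 1658 UMIs) and were set aside. So were 200 Null and 399 Control epithelial cells that fell in no epithelial class. Fgf9 stood at 1.71 UMIs per 1000000 UMIs (CPM) in the kept Null barcodes and at 8.89 CPM in the kept Control barcodes. Xist, which marks female cells, stood at 0.294 CPM in Null and 378 CPM in Control, so the Null cells were nearly all male and the Control cells of both sexes. Ratios against the male Control cells alone, those with a Y-linked UMI and at most 1 Xist UMI, are therefore given beside the counts they change. The libraries shared 180 barcode sequences, 72 of them kept in both. Markers of acinar cells were detected in every other class, and their summed level there was lower in Null than in Control: it was 1131 CPM in Null and 2027 CPM in Control endocrine cells, and 1414 CPM in Null and 2519 CPM in Control leukocytes. By that level, RNA outside its own cells (free RNA) was estimated at 5.65% to 7.41% of the UMIs of a Null class and at 16.8% to 25.5% of those of a Control class, apart from acinar cells. The profile of free RNA rested on 6282 Null but only 244 Control barcodes, so these shares are rough.

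The 9 members were expressed in a lineage pattern, and for most of them the order of the classes was much the same in both libraries. Dlk1, Cdkn1c, H19 and Plagl1 were highest in mesenchymal cells, Mest in endothelial cells, Peg3 and Peg10 in endocrine cells and Grb10 in ductal or trunk cells, each in both libraries. Meg3 was highest in endocrine cells in Null, where the interval overlapped that of mesenchymal cells, and in mesenchymal cells in Control. Across 9 classes the ranks of Cdkn1c were the same in both libraries in all 9, those of Dlk1 in 7, and those of Peg3 and Peg10 in 6, whereas those of Meg3 and Grb10 matched in 3. H19 matched in 5, and Mest and Plagl1 in 4. Spearman's rank correlation of the classes between the libraries was 0.63 for Grb10 and 0.73 for Plagl1. For every other member, Meg3 among them, it was at least 0.93. All levels below are CPM of the class, and they are compared between classes or libraries, never between genes.

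**Figure D1:**
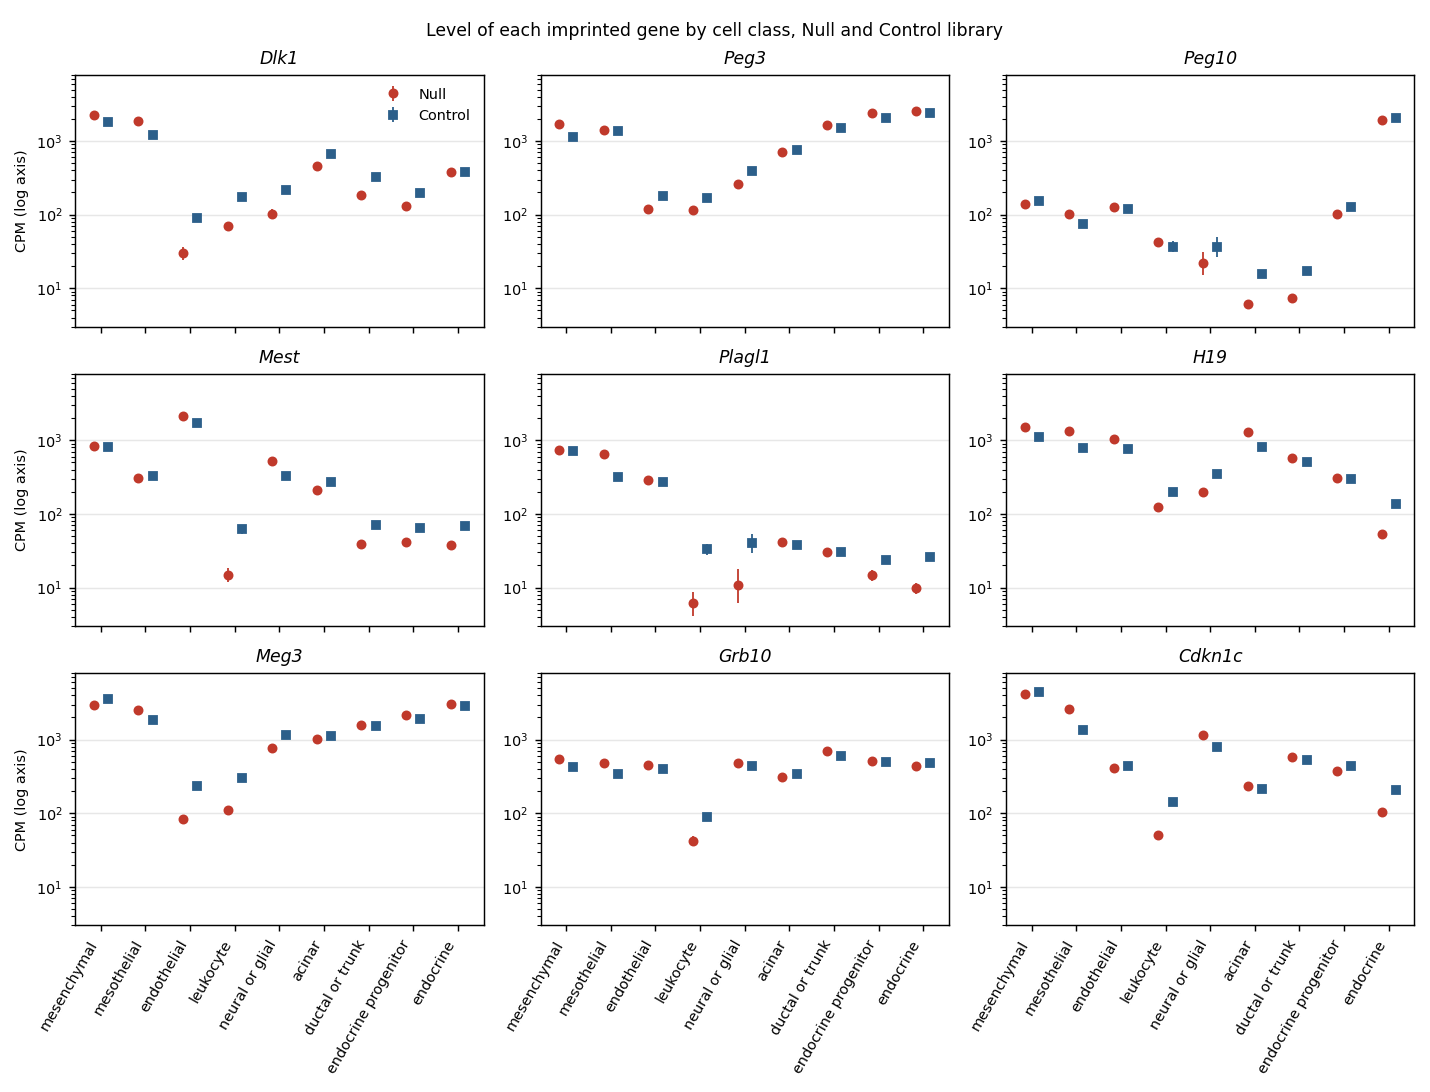
Each panel shows the level of 1 imprinted gene in CPM (log axis) in 9 cell classes, with the Null library as circles left of the Control library as squares; bars are 95% Poisson intervals, mostly smaller than the symbols. Cdkn1c, Dlk1 and Plagl1 are highest in mesenchymal cells, Mest in endothelial cells and Peg10 in endocrine cells in both libraries.

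Among the paternally expressed members, Dlk1 stood at 2233 CPM in Null and 1792 CPM in Control mesenchymal cells, and at 1851 CPM in Null and 1199 CPM in Control mesothelial cells, the cells that line the outer surface of the organ. In the epithelium it was highest in acinar cells, at 463 CPM in Null and 660 CPM in Control, and in endocrine cells, at 383 CPM in Null and 379 CPM in Control. Endothelial cells were lowest, at 29.9 CPM in Null and 88.8 CPM in Control. Leukocytes followed, at 69.5 CPM in Null and 174 CPM in Control. Dlk1 was thus highest in mesenchymal and mesothelial cells, with a lower level in acinar and hormone-producing cells. After cells were thinned to 2000 UMIs, which left out 249 Null and 268 Control mesenchymal cells with fewer, a Dlk1 UMI was found in 94.7% of Null and 91.0% of Control mesenchymal cells (92.7% in Null and 93.5% in Control before thinning). In leukocytes, with 13 Null and 36 Control cells left out, the shares were 10.4% in Null and 25.9% in Control (52.0% in Null and 64.7% in Control before thinning).

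Plagl1 was high in mesenchymal, mesothelial and endothelial cells and low elsewhere. Its level was 748 CPM in Null and 717 CPM in Control mesenchymal cells, 646 CPM in Null and 320 CPM in Control mesothelial cells, and 289 CPM in Null and 275 CPM in Control endothelial cells. In no epithelial class did it exceed 42.1 CPM in Null or 38.4 CPM in Control, the levels of acinar cells. Leukocytes (6.10 CPM in Null, 33.0 CPM in Control) and neural or glial cells (10.9 CPM in Null, 39.8 CPM in Control) were as low as the epithelium.

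Mest was the endothelial member, at 2109 CPM (95% interval 2059 to 2160) in Null and 1696 CPM (1651 to 1743) in Control endothelial cells. Mesenchymal cells followed, at 839 CPM in Null and 805 CPM in Control, and neural or glial cells stood at 519 CPM in Null and 326 CPM in Control. Among the epithelial classes Mest was highest in acinar cells, at 209 CPM in Null and 274 CPM in Control, against 38.6 CPM in Null and 69.8 CPM in Control ductal or trunk cells. A small endocrine cluster led by Sst (35 Null and 38 Control cells, described below) held a similar level, at 253 CPM in Null and 253 CPM in Control. A Mest UMI was found in 92.6% of Null and 88.2% of Control endothelial cells after thinning, with 33 Null and 32 Control cells left out, and in 87.8% of Null and 89.6% of Control cells before it.

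Peg3 and Meg3 varied together although 1 is expressed from the paternal and the other from the maternal copy on different chromosomes. Peg3 was high in endocrine cells (2569 CPM in Null, 2425 CPM in Control), endocrine progenitors (2412 CPM in Null, 2058 CPM in Control) and ductal or trunk cells (1645 CPM in Null, 1490 CPM in Control), and lower in acinar cells (699 CPM in Null, 758 CPM in Control). Meg3 was 3031 CPM in Null and 2899 CPM in Control endocrine cells, and 2978 CPM in Null and 3547 CPM in Control mesenchymal cells, with acinar cells at 1023 CPM in Null and 1122 CPM in Control. The genes parted in mesenchymal cells, which in Control ranked 1 for Meg3 but 5 for Peg3, at 1130 CPM. In Null that class ranked 2 for Meg3 and 3 for Peg3, at 1691 CPM. Both were lowest in endothelial cells and leukocytes: Meg3 stood at 84.9 CPM in Null and 234 CPM in Control endothelial cells. Over the 18 profiles of 9 classes in 2 libraries, Pearson's r between log2(CPM + 1) of Meg3 and Peg3 was 0.93, the highest of the 36 pairs of members, whose median was 0.33; the lowest was -0.41, between H19 and Peg10. The profiles of 1 library share their free RNA and their preparation, so these correlations describe the profiles and carry no test.

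Peg10 was the endocrine member. It stood at 1908 CPM in Null and 2056 CPM in Control endocrine cells, 101 CPM in Null and 127 CPM in Control endocrine progenitors, 7.30 CPM in Null and 17.3 CPM in Control ductal or trunk cells, and 6.13 CPM in Null and 15.5 CPM in Control acinar cells. Its endocrine level was 311-fold its lowest class level in Null and 133-fold in Control, the widest ratio of any member in either library. Mesenchymal and endothelial cells held an intermediate level, at 139 CPM in Null and 154 CPM in Control mesenchymal cells. The estimated free RNA alone amounted to 9.45 CPM in Null and 33.3 CPM in Control ductal or trunk cells, which is no less than the level measured there.

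Of the maternally expressed members, Cdkn1c was the one whose classes stood in the same order throughout. Mesenchymal cells stood at 4151 CPM (4117 to 4184) in Null and 4462 CPM (4436 to 4488) in Control, mesothelial cells at 2589 CPM in Null and 1332 CPM in Control, and neural or glial cells at 1168 CPM in Null and 794 CPM in Control. Ductal or trunk cells followed at 578 CPM in Null and 537 CPM in Control, then endothelial cells at 411 CPM in Null and 444 CPM in Control and endocrine progenitors at 371 CPM in Null and 440 CPM in Control. Acinar cells, at 234 CPM in Null and 211 CPM in Control, endocrine cells and leukocytes closed the order. In Control, the intervals of the endothelial and progenitor levels overlapped, as did those of acinar and endocrine cells, whereas in Null no neighbours in this order overlapped.

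H19 was high in mesenchymal, mesothelial, endothelial and acinar cells. It stood at 1527 CPM in Null and 1117 CPM in Control mesenchymal cells, 1352 CPM in Null and 792 CPM in Control mesothelial cells, 1287 CPM in Null and 818 CPM in Control acinar cells, and 1053 CPM in Null and 761 CPM in Control endothelial cells. Ductal or trunk cells held 577 CPM in Null and 501 CPM in Control, and endocrine cells were lowest, at 52.7 CPM in Null and 137 CPM in Control. In the endocrine class the estimated free RNA level of H19 was 62.1 CPM in Null and 171 CPM in Control, above what was measured. An estimate above the measured level is too rough to tell whether endocrine cells held H19 of their own.

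Grb10 differed least between classes. Outside leukocytes it lay between 314 CPM (acinar) and 696 CPM (ductal or trunk) in Null and between 339 CPM (mesothelial) and 608 CPM (ductal or trunk) in Control. Several neighbours in its order had overlapping intervals, among them mesothelial, neural or glial and endothelial cells in Null and acinar and mesothelial cells in Control. Leukocytes were lowest in both libraries, at 42.3 CPM in Null and 88.6 CPM in Control.

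Meg3 and Peg3 each had a profile close to that of a neighbour in their own domain. The gene most like Meg3 among 6269 genes with at least 50 CPM in a profile was its neighbour Rian (r = 0.99 over the 18 profiles), and the gene most like Peg3 was its neighbour Usp29 (r = 0.97). Igf2, the paternally expressed growth factor gene beside H19, ranked the second for H19 (r = 0.89, after Csrp2 at 0.89) and the first for Plagl1 (r = 0.96), although Plagl1 lies on another chromosome. For Meg3 the next were B830012L14Rik (0.98) and Casc4 (0.93), for Peg3 Mbtps1 (0.94) and Fat1 (0.94), for H19 Flrt2 (0.87) and for Plagl1 Hoxa5 (0.94) and Ptgis (0.94). The remaining members had no domain neighbour among their 3 most similar genes: Dlk1 was most like Alcam (0.89), Creb3l1 (0.87) and Txndc5 (0.86), Peg10 like Gng12 (0.93), Btg3 (0.88) and the imprinted gene Gnas (0.87), and Mest like Tspan6 (0.93), Tmem47 (0.91) and Plpp1 (0.91). Grb10 was most like Cttn (0.98), Lzts2 (0.96) and Bod1 (0.95), and Cdkn1c like Zfp354c (0.92), Myl9 (0.92) and Smo (0.92). Rian stood at 452 CPM in Null and 437 CPM in Control mesenchymal cells and at 17.9 CPM in Null and 67.6 CPM in Control endothelial cells, so its high and low classes were those of Meg3. Asb4, downstream of Peg10, was likewise present in endocrine cells (54.8 CPM in Null, 66.8 CPM in Control) and nearly absent from ductal or trunk cells (0.523 CPM in Null, 2.64 CPM in Control), but it was also present in endothelial cells, at 96.3 CPM in Null and 78.9 CPM in Control.

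**Figure D2:**
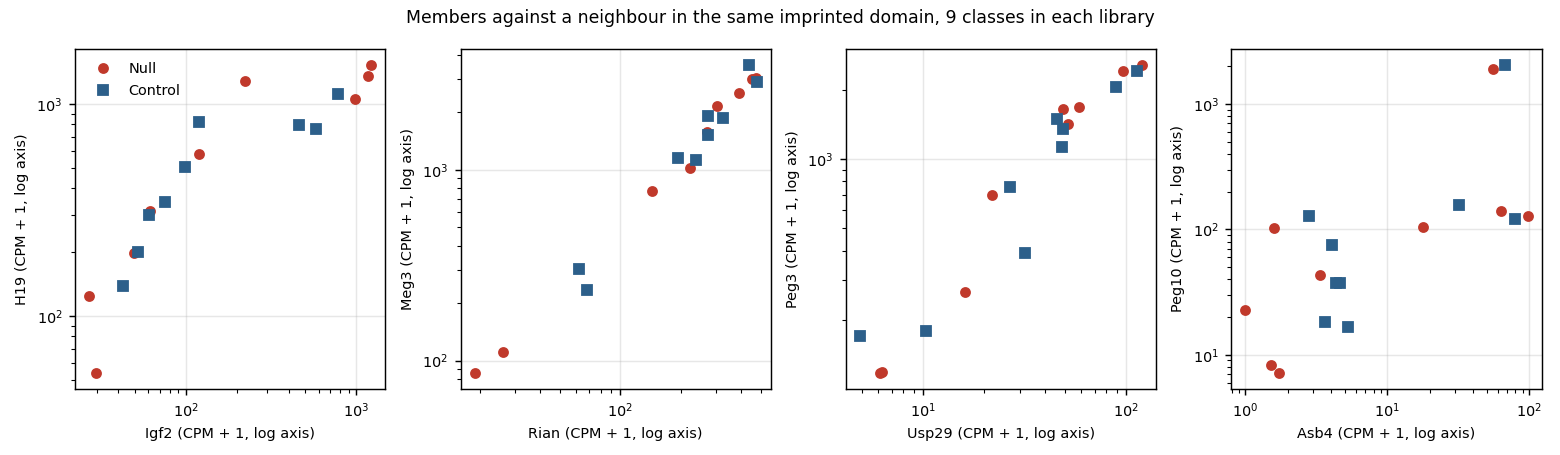
Each panel plots a member (y axis, CPM + 1, log axis) against a gene of the same imprinted domain (x axis, CPM + 1, log axis), with 1 point per cell class, Null as circles and Control as squares. Meg3 with Rian and Peg3 with Usp29 lie close to a line, while Peg10 with Asb4 scatters.

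The endocrine lineage was divided further by clustering the epithelial cells without the imprinted genes, and the clusters are named here by a leading gene. Cdkn1c was highest in the cluster led by Neurog3, the factor that commits trunk cells to the endocrine fate, at 743 CPM in Null and 657 CPM in Control. It stood at 366 CPM in Null and 451 CPM in Control in the cluster led by Neurod2 and Pax4, and at 77.6 CPM in Null and 181 CPM in Control in the cluster led by Fev, a factor of hormone-low precursors. H19 had the same order, with 707 CPM in Null and 576 CPM in Control in the Neurog3 cluster and 71.8 CPM in Null and 128 CPM in Control in the Fev cluster. Both p57 and H19 transcripts were thus abundant at the Neurog3 step and low by the Fev step in either library.

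Peg10 ran the opposite way. It was near the free RNA level in the Neurog3 cluster (7.97 CPM in Null, 21.9 CPM in Control) and the Neurod2 cluster (11.2 CPM in Null, 34.3 CPM in Control), was at 268 CPM in Null and 305 CPM in Control in the Fev cluster, and reached 2815 CPM in Null and 2789 CPM in Control in the cluster led by Gcg, the glucagon gene. The cluster led by Ins1, an insulin gene, held 753 CPM in Null and 1007 CPM in Control, and that led by Sst, the somatostatin gene, 414 CPM in Null and 497 CPM in Control. Peg10 therefore distinguished the glucagon cluster from the other hormone clusters in each library. Meg3 was 1450 CPM in Null and 1477 CPM in Control in the Neurog3 cluster, 3137 CPM in Null and 2746 CPM in Control in the Fev cluster, and highest in the Sst cluster, at 4501 CPM in Null and 4459 CPM in Control. The Sst cluster was small, with 35 Null and 38 Control cells.

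Peg3 and Dlk1 followed other orders. Peg3 was highest in a cluster of 41 Null and 78 Control cells, counted among the progenitors and led by Irs4 and Ghrl, the ghrelin gene, at 5534 CPM in Null and 4769 CPM in Control, and was higher in the Gcg cluster (3223 CPM in Null, 2898 CPM in Control) than in the Ins1 cluster (1592 CPM in Null, 1590 CPM in Control). Dlk1 was lower in the Gcg cluster (200.5 CPM in Null, 237 CPM in Control) than in the Ins1 cluster (610 CPM in Null, 572 CPM in Control) and the Sst cluster (725 CPM in Null, 770 CPM in Control). Grb10 was 561 CPM in Null and 533 CPM in Control in the Gcg cluster, against 302 CPM in Null and 413 CPM in Control in the Ins1 cluster. Alpha-like and beta-like cells named from their own markers gave the same order for Peg10, at 3461 CPM in Null and 3427 CPM in Control alpha-like cells (125 Null, 103 Control cells) and at 1062 CPM in Null and 2135 CPM in Control beta-like cells (119 Null, 83 Control cells). The beta-like class joined 2 clusters in unequal proportions in the libraries.

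**Figure D3:**
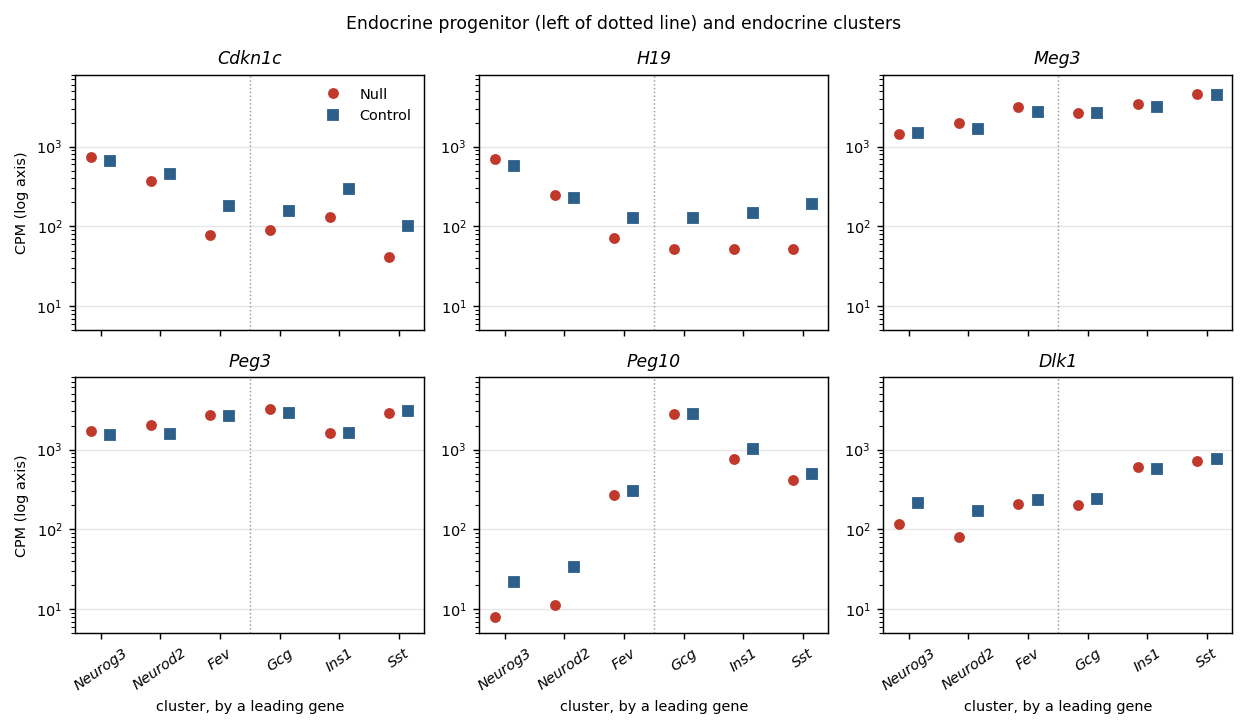
Levels of 6 members (CPM, log axis) in 3 endocrine progenitor clusters, left of the dotted line, and 3 hormone clusters, right of it, each named by a leading gene, with Null circles left of Control squares. Cdkn1c and H19 are high in the Neurog3 cluster and low from the Fev cluster on, while Peg10 is low until the Fev cluster and peaks in the Gcg cluster.

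Among acinar cells H19 was highest in the cluster led by trypsinogen and elastase genes (Try5, Cela2a), at 2086 CPM in Null and 1385 CPM in Control. In the other 5 acinar clusters it lay between 1018 and 1645 CPM in Null and between 736 and 905 CPM in Control. Mest was lowest in the same enzyme-led cluster, at 151 CPM in Null and 184 CPM in Control, and Grb10 as well, at 260 CPM in Null and 229 CPM in Control. A cluster led by Cym and Nepn stood apart for Peg3, at 1653 CPM in Null and 1676 CPM in Control, against at most 685 CPM in Null and 732 CPM in Control in the other acinar clusters. It also held the highest Cdkn1c (467 CPM in Null, 473 CPM in Control) and Grb10 (652 CPM in Null, 675 CPM in Control) of the acinar clusters, levels close to those of ductal or trunk cells.

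**Figure D4:**
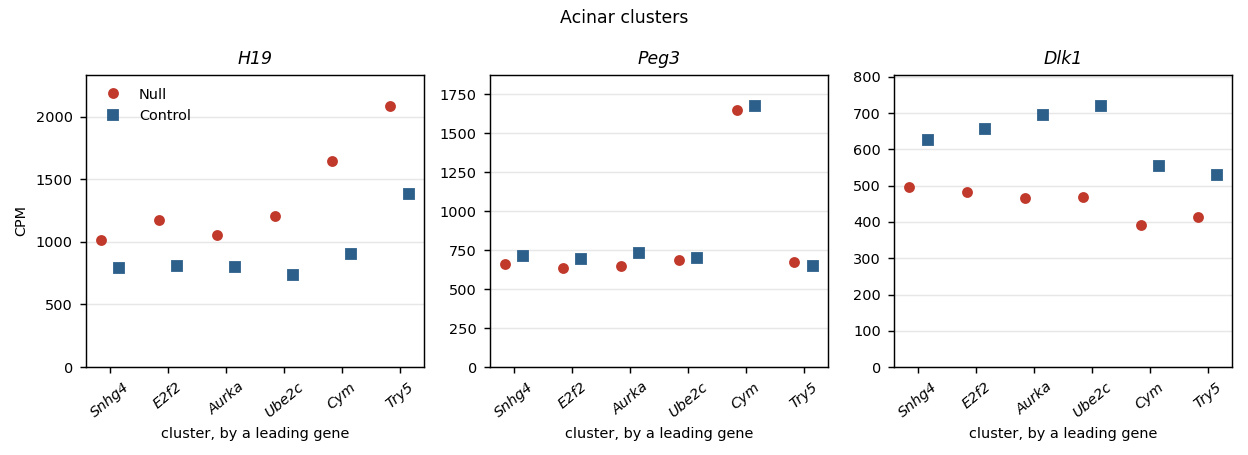
Levels of H19, Peg3 and Dlk1 in 6 acinar clusters, each named by a leading gene (CPM, linear axis from 0), with Null circles left of Control squares. H19 is higher in Null than in Control in every cluster and highest in the Try5 cluster, Peg3 stands apart in the Cym cluster, and Dlk1 is lower in Null in every cluster.

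The second question was whether the members differed between Null and Control within a class. A difference of at least 2-fold, that is a log2 ratio of Null over Control of at least 1 in size, was counted, in the 7 classes with at least 200 cells in each library. Mesothelial cells, where Fgf9 was among the leading genes of a cluster, had 8 of the 9 members higher in Null, with a median log2 ratio of 0.51, against -0.02 over all 14034 genes tested. Plagl1 reached the 2-fold limit, at 646 CPM in Null and 320 CPM in Control (log2 ratio 1.01, 95% interval 0.96 to 1.07), and Cdkn1c fell just short of it, at 2589 CPM in Null and 1332 CPM in Control (0.96, 0.93 to 0.99). H19 (0.77), Dlk1 (0.63), Grb10 (0.51), Peg10 (0.47) and Meg3 (0.45) were higher by less, Peg3 (0.07) hardly differed, and Mest (-0.09) was slightly lower. The 1 member past 2-fold stood against 11.6% of all genes tested in mesothelial cells (6.17% higher and 5.42% lower in Null). Over the 12 alternative settings the ratio of Plagl1 lay between 0.84 and 1.06 and that of Cdkn1c between 0.78 and 1.06, so both were higher in Null under each but only near the limit. The ratio of Peg10 depended most on the setting, from 0.17 with clusters weighted alike to 1.49 with free RNA subtracted, which was estimated to supply 11.6% of its UMIs in Null and 64.2% in Control. With free RNA subtracted Peg10 was thus the member past 2-fold, and Plagl1 stood at 0.84.

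Most of the other imprinted genes measured in the mesothelial class were also higher in Null. Of 15 domain neighbours measured there 13 were higher in Null, with a median log2 ratio of 0.43, and 17 of 22 further imprinted genes, with a median of 0.33. The median over all genes was -0.02. This was not particular to mesothelial cells for the further genes: in endocrine cells 18 of 22 were higher in Null, with a median of 0.20. There 6 of the 9 members and 11 of 14 neighbours were lower. The values that follow are again those of mesothelial cells. Igf2 stood at 1164 CPM in Null and 458 CPM in Control (log2 ratio 1.34) and Asb4 at 16.9 CPM in Null and 3.06 CPM in Control (2.46). Ndn, a growth-restraining gene of the MAGE family, was 259 CPM in Null and 128 CPM in Control, Phactr2 140 CPM in Null and 66.7 CPM in Control, and Magel2 2.88 CPM in Null and 1.28 CPM in Control. Dcn, which encodes the matrix proteoglycan decorin and is also a mesenchymal gene, was 1357 CPM in Null and 465 CPM in Control. Rasgrf1 went the other way, at 0.719 CPM in Null and 8.19 CPM in Control.

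Markers of mesenchymal cells moved with these genes: 7 of 8 were higher in Null mesothelial cells, with none at 0 in either library, and their summed level was 7532 CPM in Null and 2403 CPM in Control. Their part in the mesothelial differences was not tested. In the mesothelial cluster of higher depth, led by Upk3b, Cdkn1c stood at 2652 CPM in Null and 1402 CPM in Control and Plagl1 at 673 CPM in Null and 339 CPM in Control, and in the shallower cluster, led by Lhx9, Cdkn1c stood at 1684 CPM in Null and 747 CPM in Control and Plagl1 at 258 CPM in Null and 166 CPM in Control. Both genes were thus higher in Null in each mesothelial cluster. Against male Control cells alone the count past 2-fold was again 1.

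In mesenchymal cells no member reached 2-fold, against 10.8% of the 14829 genes tested (4.30% higher and 6.51% lower in Null). Peg3 was 1691 CPM in Null and 1130 CPM in Control (log2 ratio 0.58), H19 was 1527 CPM in Null and 1117 CPM in Control (0.45), and Dlk1 was 2233 CPM in Null and 1792 CPM in Control (0.32). Meg3 was lower, at 2978 CPM in Null and 3547 CPM in Control (-0.25), and Cdkn1c close to even (-0.10), as was Plagl1 (0.06). The median over the members was 0.06, against 0.01 over all genes. Asb4 was the neighbour past 2-fold, at 62.1 CPM in Null and 30.8 CPM in Control, and Dcn the further imprinted gene, at 1286 CPM in Null and 545 CPM in Control.

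Acinar cells held H19 and Dlk1 on opposite sides. H19 was 1287 CPM in Null and 818 CPM in Control (log2 ratio 0.65, 0.64 to 0.67) and higher in Null in all 6 acinar clusters. Dlk1 was 463 CPM in Null and 660 CPM in Control (-0.51, -0.53 to -0.50) and lower in Null in all 6. Igf2 moved with H19, at 221 CPM in Null and 118 CPM in Control (0.91). The enzyme-led cluster, where H19 was highest, made up 527 of the Null and 156 of the Control acinar cells, and the summed level of acinar markers was 32718 CPM in Null and 19080 CPM in Control acinar cells; their part in the pooled difference was not tested, and with the clusters weighted alike the ratio of H19 was 0.59. Peg10 was the 1 member past 2-fold, against 4.89% of the 16506 genes tested (1.83% higher and 3.06% lower in Null), at 6.13 CPM in Null and 15.5 CPM in Control (-1.34). Asb4, which is active in the same endocrine cells, was also lower (0.719 CPM in Null, 4.30 CPM in Control), as were 9 of 10 endocrine markers in acinar cells, although their summed level was 1383 CPM in Null and 1212 CPM in Control. The part of endocrine RNA in the lower Peg10 was not tested.

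In ductal or trunk cells Peg10 was again the 1 member past 2-fold (7.30 CPM in Null, 17.3 CPM in Control, log2 ratio -1.25), against 4.60% of the 16247 genes tested (2.37% higher and 2.23% lower in Null), at a level no higher than the free RNA estimate given above; among cells with at least 5000 UMIs its ratio was -0.95. Dlk1 was 188 CPM in Null and 324 CPM in Control (-0.79) and Mest 38.6 CPM in Null and 69.8 CPM in Control (-0.85), while the other 6 members lay between 0.02 and 0.20. Free RNA was estimated to supply 33.5% of the Mest UMIs of Null and 59.9% of those of Control ductal or trunk cells, but 15.6% of the Dlk1 UMIs in Null and 20.8% in Control. Dlk1 was lower in Null in all 6 ductal or trunk clusters. In a cluster led by Cxcl16 and Ankrd1 that was almost wholly Null, with 271 Null and 21 Control cells, Dlk1 stood at 70.4 CPM in Null and 122 CPM in Control, the lowest of the ductal or trunk clusters in both libraries.

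Endocrine progenitors held no member past 2-fold, against 3.70% of the 13947 genes tested (1.36% higher and 2.34% lower in Null). Under 5 alternative settings 1 member was past it, and not always the same one. Peg10 was lower in Null from 5000 UMIs on (-1.11), at resolution 0.5 (-1.37) and with the first doublet call only (-1.37). With imprinted genes among the variable genes it was higher (0.75), short of 2-fold. Plagl1 was lower after thinning (-1.16) but higher with free RNA subtracted (1.41). Dlk1 was 130.5 CPM in Null and 199 CPM in Control (log2 ratio -0.61), so it was lower in Null in acinar, ductal or trunk and progenitor cells and close to even in endocrine cells, at 383 CPM in Null and 379 CPM in Control (0.02). Peg3 was 2412 CPM in Null and 2058 CPM in Control progenitors (0.23).

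In endocrine cells the members that mark the class were nearly equal: Meg3 had a log2 ratio of 0.06, Peg3 of 0.08 and Peg10 of -0.11. The 2 members past 2-fold, against 5.66% of the 14407 genes tested (1.11% higher and 4.55% lower in Null), were H19 (52.7 CPM in Null, 137 CPM in Control, -1.38) and Plagl1 (9.82 CPM in Null, 25.8 CPM in Control, -1.40), both at low levels in this class. With clusters weighted alike the count was 3, with Cdkn1c at -1.06. Free RNA was estimated to supply 64.5% of the Plagl1 UMIs in Null and 79.9% in Control, and more than the whole of the H19 UMIs in both. Cdkn1c was 105 CPM in Null and 204 CPM in Control (-0.96). Nnat, an imprinted gene active in hormone-producing cells, was 1421 CPM in Null and 697 CPM in Control and the 1 gene of the further list past 2-fold.

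In leukocytes 6 members were at least 2-fold lower in Null (Dlk1, Meg3, Mest, Grb10, Plagl1 and Cdkn1c), against 4.45% of the 11696 genes tested that were lower, 2.49% that were higher and 6.94% in either direction. Their levels ranged from 6.10 CPM for Plagl1 to 109 CPM for Meg3 in Null and from 33.0 CPM for Plagl1 to 299 CPM for Meg3 in Control. Of these 6, the estimated share of free RNA was lowest for Meg3 in Null (49.0%), where it exceeded the whole for Mest and Plagl1, and in Control it ran between 52.9% (Dlk1) and 98.6% (Grb10). Markers of some other classes were also lower in Null leukocytes: 7 of 8 mesenchymal markers (summed level 57.5 CPM in Null, 177 CPM in Control), 7 of 7 ductal or trunk markers (87.2 CPM in Null, 259 CPM in Control) and 9 of 10 acinar markers. Of 7 mesothelial markers 5 were lower, and of 10 endocrine markers 5. Summed levels were higher in Null for endothelial (44.5 CPM in Null, 30.9 CPM in Control) and neural or glial markers (18.7 CPM in Null, 14.0 CPM in Control). Those of endocrine progenitor markers were 109 CPM in Null and 99.0 CPM in Control. No mesenchymal or ductal or trunk marker was at 0 in either library, and 2 acinar markers were at 0 in Null and 1 in Control. The part of these other cells' RNA in the lower levels was not tested. The count of members past 2-fold was 1 against male Control cells alone (Plagl1, log2 ratio -1.07), 4 from 5000 UMIs on, 7 after thinning or with a mean over cells, and 8 with the first doublet call only. The male comparison rested on 85 of the 337 Control leukocytes, those with a Y-linked UMI, and no such filter was put on Null cells. With free RNA subtracted 4 members still had a ratio, of which Dlk1, Meg3 and Cdkn1c were lower and Grb10 higher in Null. Leukocytes were the lowest class for Peg3, Mest, Grb10 and Cdkn1c in both libraries.

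**Figure D5:**
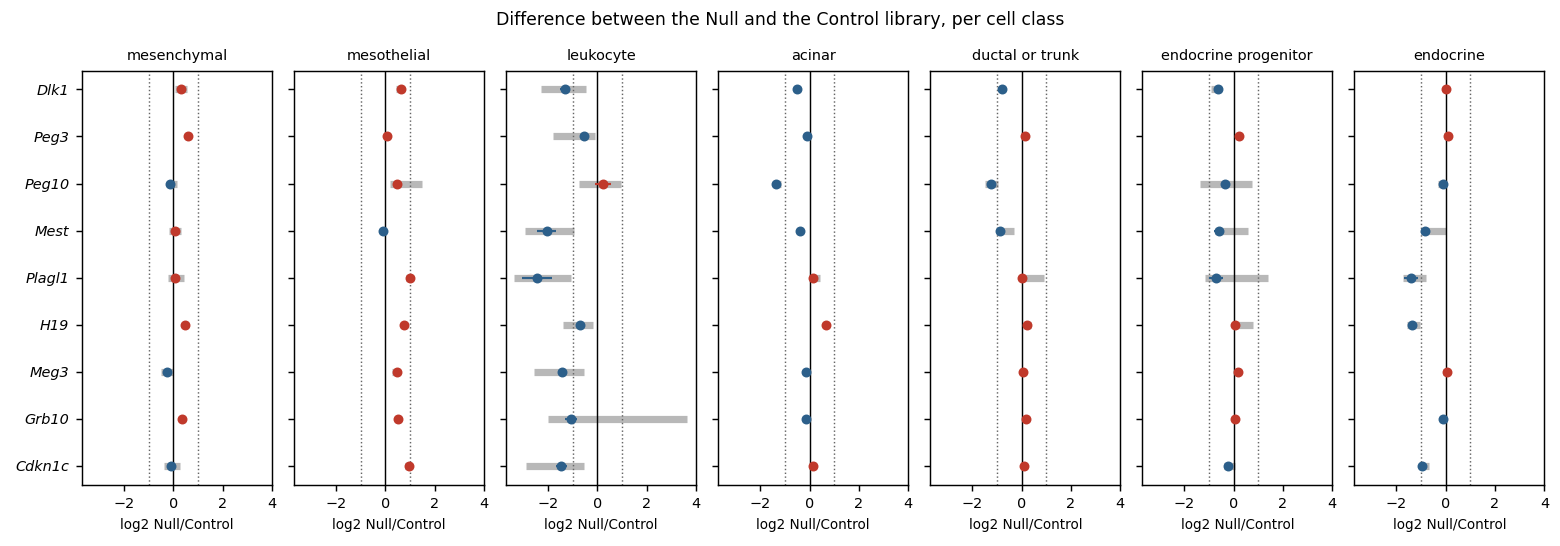
Points show the log2 ratio of Null over Control for each member (rows) in the 7 classes compared (panels), red where higher and blue where lower in Null, with 95% counting intervals; grey bars span the values under the alternative processing settings, and dotted lines mark 2-fold. Mesothelial cells have 8 of 9 points right of 0, and the grey bars are widest in leukocytes.

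Cells with and without a Cdkn1c UMI were set beside each other for Mki67 or Top2a, genes of dividing cells, after thinning to 2000 UMIs. In Control mesenchymal cells 34.1% (32.3% to 35.9%) of 2708 cells with a Cdkn1c UMI had a UMI of either gene, against 49.5% (39.3% to 59.7%) of 99 cells without one. In Null mesenchymal cells the shares were 33.4% of 836 cells with and 42.9% of 14 cells without it, and the intervals overlapped. The same order was seen for some other members in Control mesenchymal cells: the shares were 33.5% with and 46.0% without a Dlk1 UMI, and 34.1% with and 48.0% without a Meg3 UMI. Mest, Grb10 and Plagl1 had that order by less, and Peg10 was close to even (34.1% with, 34.9% without). H19 (35.4% with, 31.3% without) and Peg3 (35.5% with, 31.3% without) had the reverse order. For Cdkn1c in ductal or trunk cells the shares were 42.5% with and 44.0% without in Null, and 44.5% with and 50.6% without in Control. Among endocrine progenitors the order for Cdkn1c was the reverse, at 15.3% (10.4% to 21.3%) with and 6.43% (4.17% to 9.42%) without in Null, and 21.9% (18.4% to 25.7%) with and 15.1% (12.5% to 17.9%) without in Control. H19 gave the same order there, at 13.2% with and 7.49% without in Null, where the intervals overlapped, and 22.8% with and 15.3% without in Control, so the order was not that of Cdkn1c alone. Cells of 1 library are not replicates, so these shares are descriptions of the libraries.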

How the data were processed

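The values were the authors' deposited UMI counts per gene and barcode, 1 matrix for each library. The submitters' processing notes name Cell Ranger 6.1.1, Seurat 3.2.3, bcl2fastq and the mm10 build, without saying how each was run. TrypLE released the cells, and a size gate against doublets and a DAPI gate for live cells preceded loading, per the labels' protocols. Members and gene lists were chosen with earlier results of these data known.

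Barcodes with at least 1000 UMIs, 300 genes and under 15% mitochondrial UMIs were kept. Scrublet was run on all kept barcodes and again on those with at least 5000 UMIs, and barcodes of either call were removed (574 Null, 1303 Control); in Control the first call found no threshold, so a score of 0.25 was used. Both libraries were clustered together with scanpy 1.11.5 (2000 variable genes without imprinted, sex-linked, haemoglobin, mitochondrial, ribosomal and immediate early genes; 30 components; 15 neighbours; Leiden resolution 1), and epithelial and endocrine cells again. A cluster was named when at least 3 markers of its class stood out; clusters under 0.5 of their library's median UMIs with no marker among their 10 leading genes, and those led by markers of another class, stayed unnamed. These naming limits were set after seeing the data.

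UMIs were summed per class and library, haemoglobin and mitochondrial genes left out, and given as CPM with exact Poisson intervals; shares have exact Clopper-Pearson intervals. Ratios were given for genes with at least 20 UMIs over both libraries, and called at 2-fold. All members were described in every class; of the neighbour list (16 of 18 symbols matched) and the further imprinted list (23 of 24 matched), those past 2-fold or in a member's domain could be named. Free RNA was estimated from barcodes under 1000 UMIs and the summed acinar markers. The ratio and its interval were checked on simulated Poisson counts, which hold counting error only and no variation between animals or libraries. Coordinates come from GENCODE vM21, sequences from RefSeq.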

Additional observations from a re-analysis of the deposited data

Results flagged for a closer look

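Plagl1 differed in direction between classes: its log2 ratio of Null over Control was 1.01 in mesothelial cells, -2.43 in leukocytes and -1.40 in endocrine cells, each past 2-fold. With 1 library a genotype the difference between the classes was not tested. The levels behind the lower values were 6.10 CPM in Null and 33.0 CPM in Control leukocytes and 9.82 CPM in Null and 25.8 CPM in Control endocrine cells. Free RNA was estimated to supply more than the whole of the Plagl1 UMIs in Null and 77.7% in Control leukocytes. In endocrine cells it was 64.5% in Null and 79.9% in Control. With free RNA subtracted the ratio was 0.84 in mesothelial and -0.79 in endocrine cells, both short of 2-fold, and leukocytes gave none.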

How the results depend on the processing

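No paired analysis was possible because each genotype had 1 library. Of 740 member ratios recomputed under 12 alternatives, 413 stayed inside the counting interval of the value reported and 326 moved outside it, and 43 of the 63 ratios kept their sign under every alternative that gave a value. The alternative with no minimum of UMIs returned the reported values by construction, since every member already passed the minimum of 20 UMIs. Its 63 ratios are among the 413. Grb10 in leukocytes reversed, to 3.64 on the log2 scale with free RNA subtracted, because almost none of its Control UMIs were left. The count of members past 2-fold depended on the setting in 5 of the 7 classes. In mesothelial cells it was 0 with a mean over cells, at resolution 0.5 and with imprinted genes among the variable genes, and 2 after thinning. In ductal or trunk cells it was 0 from 5000 UMIs on and 0 with free RNA subtracted. Under the latter Peg10 had no ratio, because the estimate exceeded its level in both libraries, and so it was not counted. In endocrine cells it was 3 with clusters weighted alike, 1 after thinning and 0 with free RNA subtracted. There H19 likewise had no ratio with free RNA subtracted, and Plagl1 stood at -0.79. In endocrine progenitors it was 1 from 5000 UMIs on, after thinning, at resolution 0.5, with free RNA subtracted and with the first doublet call only, an alternative chosen after seeing the data because both calls had entered the main processing. In leukocytes it was 1 against male Control cells and otherwise between 4 (from 5000 UMIs on and with free RNA subtracted) and 8 (first doublet call). Beyond the setting's own construction, the cause was not tested. In mesenchymal and acinar cells the count did not move under the alternatives that gave one; acinar cells have none with free RNA subtracted. Scaling by the median ratio moved the median gene by at most 0.09. Depth limits the low levels: 3 UMIs correspond to 0.591 CPM in Null and 0.779 CPM in Control leukocytes.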
